A study of Mus musculus with 22 samples.

Results

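The skeletal myosin heavy chain genes were described in the ischemic gastrocnemius muscle of 22 mice. A gene counted as a member when the symbol of an array probe was Myh1, Myh2, Myh3, Myh4, Myh7 or Myh8. Of these 6 genes, 4 were found, read by 9 of the 38563 probes: Myh8 by 3, Myh7 by 3, Myh1 by 2 and Myh4 by 1. Myh3, the embryonic isoform, and Myh2, the adult fast type IIa isoform, were not analysed here because no probe carried their symbol, so the developmental side of the family rests on Myh8 alone. All mice were male C57BL/6N, aged 8 to 12 weeks and labelled non-diabetic, and hindlimb ischemia was induced in all of them by removing the femoral artery. On day 5 after surgery, 11 mice were injected with 12 mg/kg of ANTI-210, an LNA-oligonucleotide that pairs with miR-210, and 11 with the same dose of a scrambled oligonucleotide (SCR). Muscles were taken on day 7, 1 array per mouse, and no non-ischemic muscle was among the arrays. The injection was intraperitoneal, so exposure was not limited to the muscle.

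Myosin heavy chain is the motor protein of the thick filament, and each isoform is made from a gene of its own. In adult mouse muscle, Myh7 is the heavy chain of slow type I fibres, Myh1 that of fast type IIx fibres and Myh4 that of fast type IIb fibres, which make up most of the mouse gastrocnemius. Myh8 encodes the perinatal isoform, which is expressed around birth, is replaced by the adult isoforms as fibres mature and is made again by regenerating fibres after injury. The comparison of ANTI-210 with SCR asks whether blocking miR-210 changed this isoform pattern, and the values per mouse show how far adult and perinatal isoforms varied between muscles of the same treatment.

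The fast and perinatal genes lie side by side on chromosome 11 in the order Myh3, Myh2, Myh1, Myh4 and Myh8, and Myh7 lies on chromosome 14 next to Myh6, the alpha-cardiac heavy chain. RefSeq promoter windows (GRCm38.p6, 250 bases before to 50 after the start) were matched for 6 of the 6 genes. They are shown for the 4 measured genes because 3 of them share stretches of sequence but did not all vary alike between mice. Myh7 had a further window with another start, chr14:54994500-54994799, which was searched but is not shown. Capitals mark 2 runs, TCAAATTATTTATAG and TTCTAATTATATCC, searched on both strands.
Myh8, chr11:67276874-67277173, plus strand: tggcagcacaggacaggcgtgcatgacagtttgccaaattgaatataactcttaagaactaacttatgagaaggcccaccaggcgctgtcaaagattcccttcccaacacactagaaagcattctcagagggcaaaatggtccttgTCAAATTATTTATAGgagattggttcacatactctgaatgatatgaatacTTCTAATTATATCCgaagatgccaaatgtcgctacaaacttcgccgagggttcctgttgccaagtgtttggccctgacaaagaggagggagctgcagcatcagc
Myh4, chr11:67237562-67237861, plus strand: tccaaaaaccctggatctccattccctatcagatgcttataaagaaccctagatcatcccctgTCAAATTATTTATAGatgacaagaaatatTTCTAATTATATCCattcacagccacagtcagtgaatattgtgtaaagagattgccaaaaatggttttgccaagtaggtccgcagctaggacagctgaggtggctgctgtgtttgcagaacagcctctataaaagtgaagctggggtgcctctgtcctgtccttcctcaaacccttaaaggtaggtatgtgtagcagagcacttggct
Myh1, chr11:67199852-67200151, plus strand: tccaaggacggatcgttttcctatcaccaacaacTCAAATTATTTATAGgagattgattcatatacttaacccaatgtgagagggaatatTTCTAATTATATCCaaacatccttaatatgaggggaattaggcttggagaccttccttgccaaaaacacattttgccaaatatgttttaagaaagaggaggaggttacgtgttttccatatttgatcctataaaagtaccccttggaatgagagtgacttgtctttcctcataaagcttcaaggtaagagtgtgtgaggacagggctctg
Myh7, chr14:54994577-54994876, minus strand: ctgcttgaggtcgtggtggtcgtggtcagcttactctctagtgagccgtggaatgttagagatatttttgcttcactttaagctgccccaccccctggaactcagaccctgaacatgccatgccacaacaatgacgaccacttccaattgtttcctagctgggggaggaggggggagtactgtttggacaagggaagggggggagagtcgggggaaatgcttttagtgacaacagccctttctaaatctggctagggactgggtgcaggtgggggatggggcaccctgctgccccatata
The run TCAAATTATTTATAG begins at position -104 relative to the start in Myh8, -187 in Myh4 and -216 in Myh1, and was in these 3 of 32851 windows (0.00913%). The run TTCTAATTATATCC begins at -54 in Myh8, -158 in Myh4, -160 in Myh1 and -125 in Myh2, and was in these 4 windows (0.0122%). Neither run was in the windows of Myh3 or Myh7. The first run overlaps a match to the MEF2 consensus, the motif of a family of muscle transcription factors, which was in 3.19% of all windows. TATAAA was in the windows of Myh1, Myh2, Myh3, Myh4 and Myh8 and in 13.6% of all windows, and the E-box CANNTG in those of Myh3, Myh4, Myh7 and Myh8 and in 72.3%. A TATAAA began at -32 in Myh1, -29 in Myh3 and -31 in Myh4, but at 10, after the start, in Myh2. In Myh8 it was found only on the opposite strand, at -96, within the first run. These matches describe the letters of the windows and were not tested as binding sites. The reagent's target, mmu-miR-210-3p (chromosome 7, 141221407 to 141221428, minus strand), is shown with its seed, bases 2 to 8, in capitals.
mmu-miR-210-3p: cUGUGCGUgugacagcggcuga

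Values are signals of array probes on a log2 scale, so a difference of 1 is a doubling, and levels of different probes were not set against each other. The scale ran from 4.35 to 15.4 on every array, 62.6% of probes had a mean under 6, close to its floor, and changes at either end are compressed. The correlation between arrays lay between 0.947 and 0.997. Markers of skeletal muscle (Ckm, Acta1, Mb, Des, Ttn and Neb) were measured for 6 of 6 genes, and their mean level was 13.31 to 14.03 in ANTI-210 muscles and 13.27 to 14.01 in SCR muscles. A single axis, the first principal component, carried 63.6% of the variance between arrays, and 5 mice stood far along it, ANTI-210 mice 3 and 11 and SCR mice 6, 7 and 8, at 44.05 to 85.29 against -53.2 to 30.48 in the other 17. Correlations are therefore also given without these 5 mice, a choice made after seeing the data. On the second component, which held 7.31% of the variance, the mice with replicate numbers 1 to 3 stood apart: they lay between 14.9 and 24.9, and those with numbers 4 to 11 between -21.95 and 6.06. The labels name no batch, so results are also given within these 2 sets of numbers. In bulk muscle, fewer fibres that express an isoform and less of its RNA per fibre cannot be told apart.

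Myh8, the perinatal isoform, was at or near the top of the array in most mice of both groups. Its brightest probe (probe 1) ran from 13.04 to 15.40 with a median of 15.23 in ANTI-210 mice, and from 14.26 to 15.40 with a median of 15.08 in SCR mice. The 2 lowest values belonged to ANTI-210 mice 6 (13.04) and 4 (13.64), the third lowest to SCR mouse 11 (14.26), and the other mice lay between 14.79 and 15.40, so the groups overlapped over most of their range. The group means were 14.85 ± 0.78 in ANTI-210 and 15.03 ± 0.30 in SCR (SD, n = 11 each), and the difference, ANTI-210 minus SCR, was -0.18 (95% interval -0.69 to 0.32, limma p = 0.459, adjusted p = 1). Probe 1 was the brightest of all probes on 2 arrays, where it can rise no further.

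The dimmer Myh8 probes had room to vary. Probe 2 ran from 11.35 to 14.60 with a median of 14.22 in ANTI-210 mice and from 12.56 to 14.53 with a median of 13.99 in SCR mice. Probe 3 ran from 11.28 to 14.52 with a median of 14.23 in ANTI-210 mice and from 12.43 to 14.58 with a median of 13.67 in SCR mice, a 9.85-fold range over all mice. The same 3 mice were lowest on each probe. The differences were -0.22 for probe 2 (-0.95 to 0.50, limma p = 0.529) and -0.14 for probe 3 (-0.89 to 0.60, limma p = 0.692), and the 3 probes correlated with each other across the 22 mice at r between 0.968 and 0.985.

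Myh7, the slow isoform, varied most between mice. Its brightest probe ran from 4.82, near the floor, to 9.70 with a median of 6.23 in ANTI-210 mice, and from 4.87 to 8.72 with a median of 7.32 in SCR mice. The full range was 4.88 on the log2 scale. Since the low end lies near the floor, this is a difference of at least 29.4-fold, and the SD of the signal over all mice was larger than that of 99.97% of measured genes. The highest values were in ANTI-210 mice 4 (9.70), 6 (9.62) and 10 (8.85), followed by SCR mice 11 (8.72) and 4 (8.68), while 3 ANTI-210 mice and 3 SCR mice lay at the low end, between 4.82 and 5.28. Means were 6.87 ± 1.87 in ANTI-210 and 7.04 ± 1.49 in SCR (SD, n = 11 each), and the difference was -0.17 (95% interval -1.61 to 1.28, limma p = 0.811, adjusted p = 1). That interval runs from 0.327-fold to 2.42-fold, so a change of the size of a doubling in either direction would lie within it.

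The other Myh7 probes were dim, with means of 5.49 and 5.29 over all mice, and they followed probe 1 at r of 0.956 and 0.90. Their differences were -0.02 (limma p = 0.954) and 0.14 (limma p = 0.672). Myh6, which is no member but lies next to Myh7 and is closely related to it, had 1 probe that followed Myh7 (r = 0.944) and 1 at the floor with a mean of 4.50. Probe sequences were not used here, so signal shared between such close relatives cannot be told apart, and this holds also for the fast isoforms and Myh8.

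Myh4, the isoform of type IIb fibres, was nearly level in the 2 groups. It ran from 13.68 to 14.83 with a median of 14.61 in ANTI-210 mice and from 13.94 to 14.80 with a median of 14.63 in SCR mice. The means were 14.48 ± 0.33 in ANTI-210 and 14.52 ± 0.27 in SCR (SD, n = 11 each) and the difference was -0.04 (95% interval -0.30 to 0.22, limma p = 0.764, adjusted p = 1). ANTI-210 mouse 11 was lowest (13.68), followed by SCR mouse 6 (13.94), ANTI-210 mouse 3 (14.10) and SCR mouse 7 (14.12).

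Myh1, the isoform of type IIx fibres, had the narrowest range among the brightest probes. Its brightest probe ran from 13.65 to 14.42 with a median of 14.27 in ANTI-210 mice and from 13.75 to 14.52 with a median of 14.21 in SCR mice. The means were 14.16 ± 0.27 in ANTI-210 and 14.18 ± 0.26 in SCR (SD, n = 11 each), a difference of -0.02 (95% interval -0.25 to 0.21, limma p = 0.838, adjusted p = 1). Its second, dimmer probe ran from 7.95 to 10.37 in ANTI-210 mice and from 8.45 to 10.37 in SCR mice, followed the first at r = 0.856 and differed by -0.07 (limma p = 0.799).

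**Figure D1:**
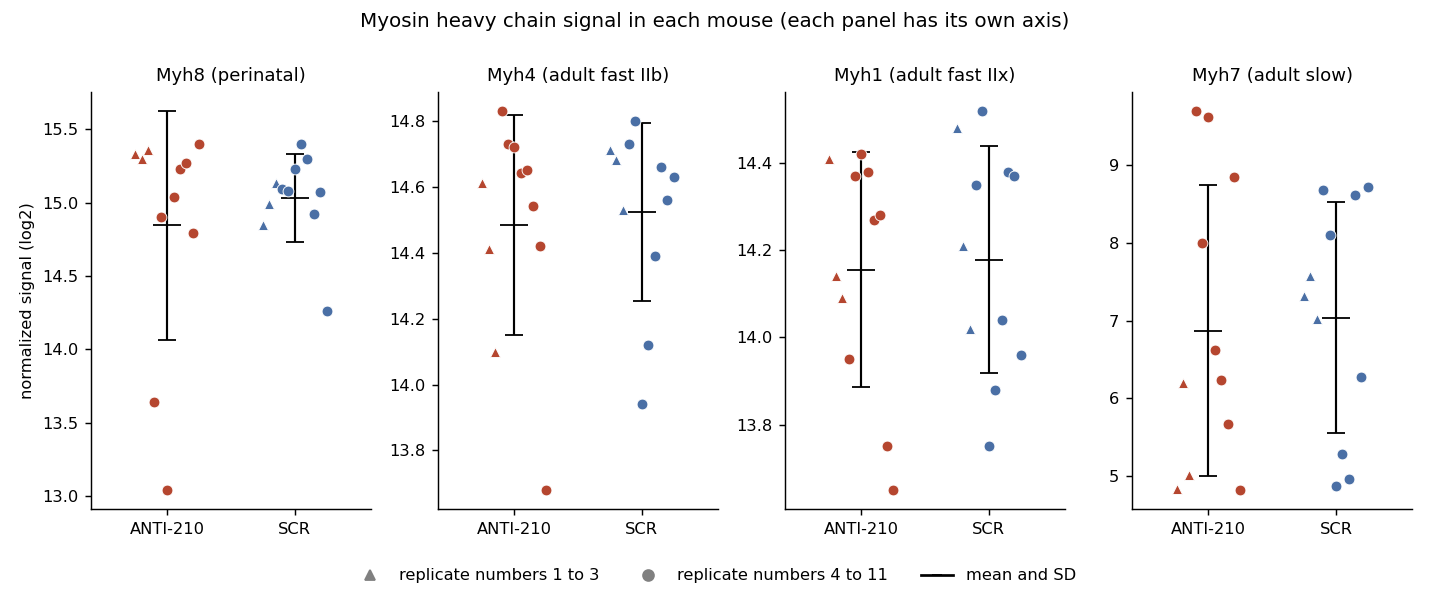
Normalized signal (log2, vertical axis, a separate axis per panel) of the brightest probe of Myh8, Myh4, Myh1 and Myh7 in each ANTI-210 mouse (left) and SCR mouse (right), with triangles for replicate numbers 1 to 3, circles for 4 to 11, and the mean and SD in black. The groups overlap for each gene, and Myh7 spreads from 4.82 to 9.70.

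Thus 0 of the 9 probes passed an unadjusted limma p of 0.05 between ANTI-210 and SCR, against 3.41% of all probes tested (1316 of 38563), and each had an adjusted p of 1. Over all probes 567 were higher (1.47%) and 749 lower (1.94%) in ANTI-210 at the unadjusted threshold, and 2 passed after Benjamini-Hochberg adjustment (0.00519%). The 95% intervals run from 0.84-fold to 1.15-fold for Myh1 probe 1 and from 0.813-fold to 1.17-fold for Myh4, whose bright signals lie where the scale compresses changes, from 0.62-fold to 1.25-fold for Myh8 probe 1, and wider on the dimmer probes, from 0.644-fold to 1.41-fold for Myh1 probe 2 and from 0.538-fold to 1.52-fold for Myh8 probe 3. Without the 5 mice far along the first principal component, 0 of the 9 probes passed as well (limma, 9 ANTI-210 against 8 SCR mice), against 12.7% of all probes unadjusted and 0.00259% adjusted, and Myh7 differed by -0.48 (p = 0.473).

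**Figure D2:**
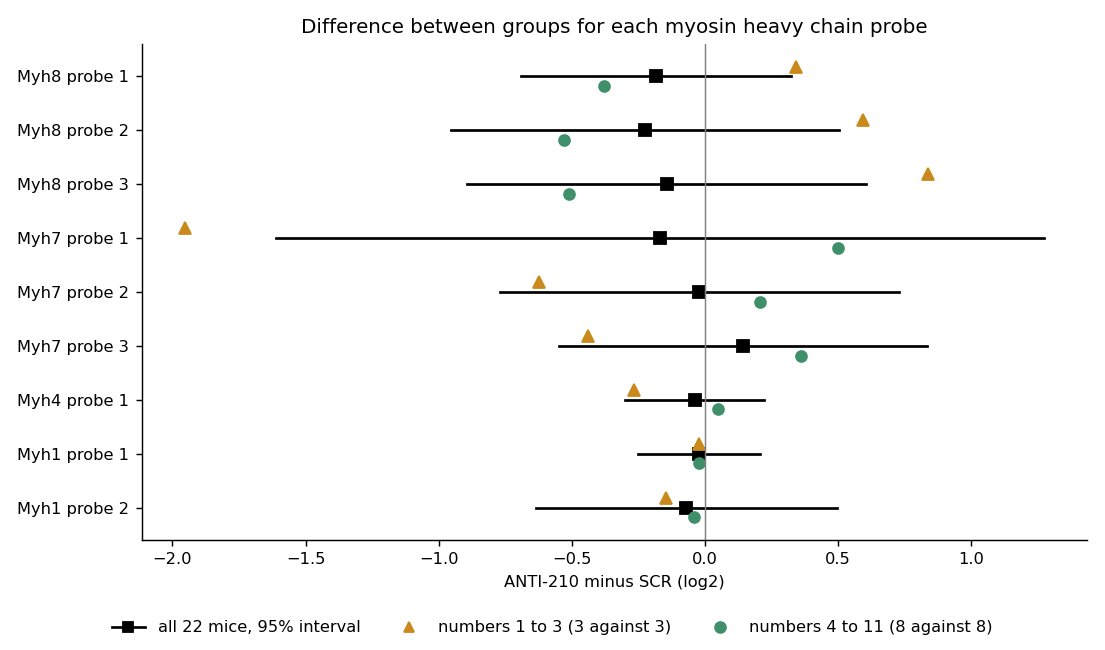
Difference ANTI-210 minus SCR (log2, horizontal axis) for the 9 probes: squares with 95% intervals for all 22 mice, triangles for replicate numbers 1 to 3 and circles for numbers 4 to 11. The 9 intervals of all mice span 0, and the triangles and circles of Myh8 and Myh7 lie on opposite sides of it.

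Within replicate numbers 1 to 3, the 3 Myh8 probes were higher and 2 of the 3 Myh7 probes lower in ANTI-210 at the adjusted threshold, and within numbers 4 to 11 none of the 9 passed. In the first set Myh8 probe 1 averaged 15.33 ± 0.03 in ANTI-210 and 14.99 ± 0.14 in SCR (SD, n = 3 each). The difference was 0.34 (adjusted limma p = 0.042). The Myh8 differences of probes 2 and 3 were 0.59 and 0.84 (adjusted limma p of 0.027 and 0.016). Myh7 probe 1 averaged 5.35 ± 0.74 in ANTI-210 and 7.30 ± 0.28 in SCR, a difference of -1.95 (adjusted limma p = 0.029). The 3 ANTI-210 and 3 SCR mice did not overlap on any Myh8 or Myh7 probe, for which the exact two-sided permutation p is 0.1, the smallest that 3 against 3 mice allow. This set differed widely, since 33.1% of all probes did not overlap there 29.3% passed the unadjusted threshold and 14.2% the adjusted one, so the members' calls stand against a high background. Myh4 (-0.27) and Myh1 (-0.02) overlapped.

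In the 8 ANTI-210 and 8 SCR mice with numbers 4 to 11, the signs were turned for Myh8, Myh7 and Myh4, and both Myh1 probes kept theirs. Myh8 probe 1 averaged 14.66 ± 0.86 in ANTI-210 and 15.04 ± 0.35 in SCR (SD, n = 8 each), a difference of -0.38 (exact permutation p = 0.287). Myh7 probe 1 averaged 7.44 ± 1.86 in ANTI-210 and 6.94 ± 1.76 in SCR, a difference of 0.50 (exact permutation p = 0.583). Of all probes 2.54% passed the unadjusted threshold in this set and 0 the adjusted one (limma). The difference between the effects, numbers 4 to 11 minus 1 to 3, was tested directly. It was 2.46 for Myh7 (limma p = 0.115) and -0.72, -1.12 and -1.35 for the Myh8 probes (limma p of 0.192, 0.151 and 0.0964), and 0 of the 9 probes passed, against 11.0% of all probes unadjusted. The opposite directions were therefore not shown to differ.

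Adult and perinatal isoforms were then set side by side per mouse. For each gene the deviation of a mouse from the mean of all mice was taken, and the mean deviation of the adult genes Myh1, Myh4 and Myh7 was subtracted from that of Myh8. This perinatal-minus-adult value ran from -2.94 to 1.62 with a median of 0.45 in ANTI-210 mice and from -1.24 to 1.31 with a median of -0.23 in SCR mice. ANTI-210 mice 6 (-2.94) and 4 (-2.25) and SCR mouse 11 (-1.24) leaned furthest to the adult side, and ANTI-210 mouse 11 (1.62) and SCR mice 6 (1.31) and 7 (1.24) furthest to the perinatal side. Both groups thus held mice at either end. The group means were -0.05 ± 1.44 in ANTI-210 and 0.05 ± 0.86 in SCR (SD, n = 11 each), a difference of -0.11, which is small against either SD. The difference was 1.09 within numbers 1 to 3 and -0.56 within numbers 4 to 11. Deviations were not scaled, so Myh7 weighed most in the adult mean (SD over all mice 1.65, against 0.26 for Myh1 and 0.30 for Myh4). Within numbers 1 to 3 the difference was 2.29 against Myh7 alone and 0.485 against the fast genes. ANTI-210 mouse 1 (0.98) had Myh1 and Myh4 above their means (0.24 and 0.11), and ANTI-210 mouse 10 (-0.61) had both below (-0.42 and -0.08). Against the fast genes alone, without Myh7, the means were -0.08 ± 0.92 in ANTI-210 and 0.08 ± 0.46 in SCR. No test was made of this value, because the genes were chosen.

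**Figure D3:**
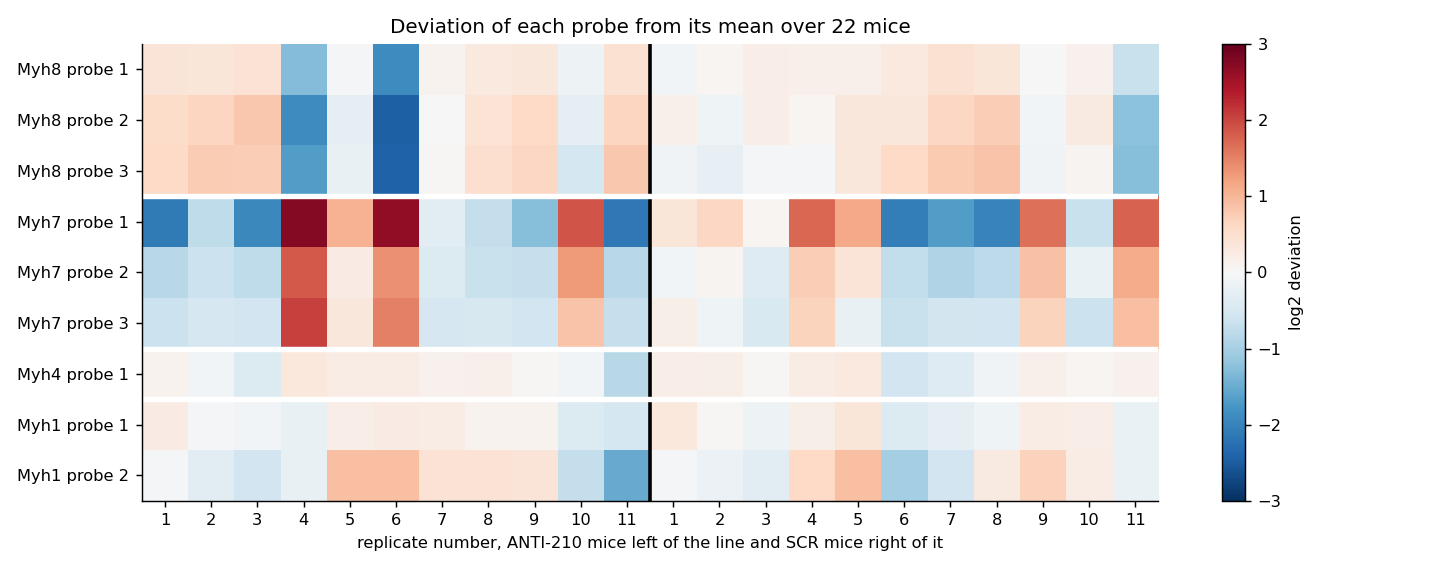
Deviation of each of the 9 probes (rows) from its own mean over the 22 mice, in log2 units by colour, for ANTI-210 mice (left of the line) and SCR mice (right), by replicate number. Mice with blue Myh8 rows, such as ANTI-210 4 and 6 and SCR 11, have red Myh7 rows.

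The mirror pattern was between Myh8 and Myh7. Across the 22 mice their brightest probes correlated at r = -0.76 and rho = -0.89 (permutation p = 1e-05 for each, the smallest that 100000 resamples give, and 6e-05 after Benjamini-Hochberg adjustment over 6 pairs). Without ANTI-210 mice 4 and 6, the 2 farthest from the median of Myh8, r was -0.79. It was -0.86 within ANTI-210 and -0.68 within SCR mice, -0.88 within numbers 1 to 3 and -0.76 within numbers 4 to 11, and -0.74 without the 5 mice far along the first component (rho = -0.85, permutation p of 5e-05 and 2e-05). In order of Myh7, the 6 mice at the bottom (4.82 to 5.28) had Myh8 signals of 15.23 to 15.40, and the 2 at the top (9.62 and 9.70) had the 2 lowest Myh8 signals. With Myh8 probe 3, which is further from the top of the scale, r was -0.85.

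Myh4 sided with Myh7 and Myh1, not with its neighbour Myh8. Myh4 and Myh1 correlated at r = 0.74 and rho = 0.64 (permutation p of 9e-05 and 0.00172, adjusted 0.00022 and 0.00258), with r = 0.56 without SCR mouse 6 and ANTI-210 mouse 11, 0.61 within numbers 1 to 3 and 0.76 within numbers 4 to 11. Myh7 and Myh4 correlated at r = 0.69 and rho = 0.75 (permutation p of 0.00011 and 8e-05, adjusted 0.00022 and 0.00024), with r = 0.66 without ANTI-210 mice 6 and 4, 0.62 within numbers 1 to 3 and 0.73 within numbers 4 to 11. Myh8 and Myh4 ran against each other at r = -0.47 and rho = -0.70 (permutation p of 0.0321 and 0.00043, adjusted 0.0482 and 0.00086). For this pair r was -0.51 without ANTI-210 mice 4 and 6, -0.73 within numbers 1 to 3 and -0.47 within numbers 4 to 11, and neither set passed on its own (permutation p of 0.0806 and 0.0552). Myh1 was not shown to follow Myh8 (r = -0.11, rho = -0.28, permutation p of 0.635 and 0.203, adjusted 0.635 and 0.244) or Myh7 (r = 0.25, rho = 0.23, permutation p of 0.252 and 0.299, adjusted 0.303 and 0.299). The dimmer Myh1 probe gave r = 0.46 and rho = 0.40 with Myh7 (permutation p of 0.0317 and 0.0631), r = -0.29 with Myh8 (p = 0.196) and r = 0.81 with Myh4 (p = 1e-05). Without the 5 mice far along the first component, Myh4 with Myh1 (r = 0.45, p = 0.0693), Myh7 with Myh4 (r = 0.46, p = 0.0577) and Myh8 with Myh4 (r = -0.42, p = 0.0879) no longer passed by r.

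**Figure D4:**
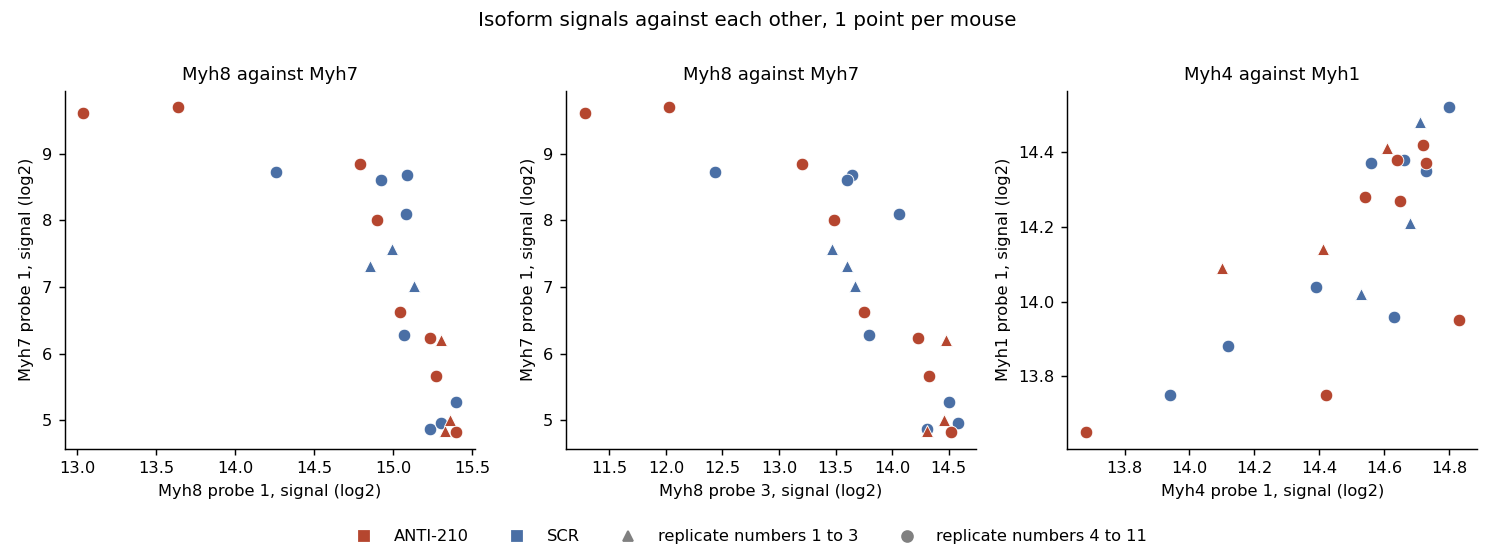
Signals (log2) of 2 isoforms against each other, 1 point per mouse, for Myh8 probe 1 and Myh7 (left), Myh8 probe 3 and Myh7 (middle) and Myh4 and Myh1 (right), with ANTI-210 in red, SCR in blue and triangles for numbers 1 to 3. Myh7 falls as Myh8 rises (r = -0.76 and -0.85), and Myh1 rises with Myh4 (r = 0.74).

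The genes most like each isoform, by Pearson r over the 22 mice among 8824 genes with a mean of at least 6, were looked up next. For Myh8 they were Maged2 (r = 0.93), Igf2 (0.909), a growth factor of fetal tissue, Mmp13 (0.90), a collagenase, 6430411K18Rik (0.897) and Rgs12 (0.874). Mmp13 ran from 6.12 to 12.17 in ANTI-210 and from 8.19 to 12.38 in SCR mice. For Myh7 they were Tpm3 (0.954), the slow-fibre tropomyosin, Myh6 (0.944), Barx2 (0.939), Lrrc52 (0.937) and Pcp4l1 (0.924). For Myh4 they were Fxr1 (0.961), Ric8b (0.96), Vegfa (0.959), the vascular endothelial growth factor, Phtf2 (0.952) and Perm1 (0.951), a muscle gene of mitochondrial biogenesis. For Myh1 they were Slc25a3 (0.846), the mitochondrial phosphate carrier, Trak1 (0.823), Hspb7 (0.82), Tfrc (0.817), the transferrin receptor, and Ip6k3 (0.817). How exacting such an r is differed by gene. An r beyond 0.8 in either direction was reached by 30.2% of the 8824 genes for Myh4 and 19.3% for Myh7, but by 0.374% for Myh8 and 0.147% for Myh1. For Myh8 these r rest on probe 1, near the top of the scale, with ANTI-210 mice 4 and 6 far below the others. By rank, Myh8 followed the first component (rho = 0.87, r = 0.59) as Myh7 did in the other direction (rho = -0.83). The shares were not computed by rank or with any mice left out.

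The partner genes of the isoforms were then counted, from lists of other sarcomere and fibre-type genes. Between ANTI-210 and SCR, 2 of 58 measured partner genes passed the unadjusted threshold (limma), 0 of them higher and 2 lower in ANTI-210, against 3.47% of all 18524 genes, 1.45% higher and 2.01% lower. Without the 5 mice far along the first component 14 of the 58 passed, 5 higher and 9 lower. Of these, 1 (Mef2c) was called with all mice. Those higher were Nes, Myog, Myh9, Myod1 and Myl4. Those lower were Sox6, Trim54, Myom2, Myoz1, Nfatc1, Tbx15, Myom1, Mef2c and Smyd1. Of all probes 12.7% passed in that fit, and the share over all genes was not computed. With all mice, 0 of 12 fast-fibre genes passed, and the median difference was -0.002. The smallest p were those of Mylpf (0.04, p = 0.11), Tnnt3 (-0.07, p = 0.14) and Myom2 (-0.11, p = 0.279). Of 11 slow-fibre genes, 1 was lower: Myom3, an M-band protein, had 12.31 as its median in ANTI-210 and 12.56 in SCR and differed by -0.20 (limma p = 0.0315, adjusted p = 1). That p lay between 0.0501 and 0.063 without ANTI-210 mouse 3, 4, 10 or 11 or SCR mouse 4, 8, 9 or 10, at differences of -0.16 to -0.19, and was 0.112 within numbers 4 to 11 and 0.0763 without the 5 mice far along the first component. Csrp3 (-0.21, p = 0.179) and Myl6b (-0.20, p = 0.186) came next in that list.

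Of 12 measured factors known to act on fibre-type genes, 1 was lower with all mice: Mef2c differed by -0.15 (limma p = 0.0324, adjusted p = 1), with p of 0.0532 to 0.0614 without ANTI-210 mouse 3, 10 or 11 or SCR mouse 4 or 9. The call was also lost with the mean of all Mef2c probes (-0.11, p = 0.164), with a trended robust prior (p = 0.0563) and within numbers 4 to 11 (-0.13, p = 0.154). Sox6 (-0.31, p = 0.112), a repressor of slow-fibre genes, and Nfatc1 (-0.17, p = 0.147), a calcineurin-dependent factor of slow fibres, had the next smallest p. Without the 5 mice far along the first component, Sox6 differed by -0.53 (limma p = 1.42e-05, adjusted p = 0.0963). Nfatc1 differed by -0.22 there (limma p = 0.0164, adjusted p = 0.298). Of 11 genes of embryonic and regenerating muscle, 0 passed with all mice, and their median difference was 0.24, beside -0.004 over all genes. Actc1, the cardiac actin of developing muscle, differed by 0.36 (p = 0.293), Myl4, the embryonic light chain, by 0.45 (p = 0.295), and Myog, myogenin, by 0.39 (p = 0.369). Without the 5 mice far along the first component, Nes (0.54), Myog (0.74), Myod1 (0.34) and Myl4 (0.78) were higher. Their limma p lay between 0.0118 and 0.0441 and their adjusted p between 0.273 and 0.38. The other genes of this list did not pass in that fit. Of 7 thick-filament genes (median -0.08) and 5 other myosin heavy chains (median 0.10), 0 passed. These counts are with all mice. The smallest p values there were those of Mybpc1 (-0.14, p = 0.252), Smyd1 (-0.27, p = 0.348), the myosin chaperone methyltransferase, and Myom1 (-0.08, p = 0.65), and of Myh11, the smooth muscle heavy chain (0.26, p = 0.0724), Myh9 (0.22, p = 0.28) and Myh10 (0.10, p = 0.342).

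Between mice these partners varied with the isoforms, but so did the first principal component. Its r was -0.89 with Myh4 (rho = -0.82), -0.85 with Myh7 (rho = -0.83), 0.59 with Myh8 (rho = 0.87) and -0.58 with Myh1 (rho = -0.54), with permutation p between 1e-05 and 0.0114. How far each relation goes beyond this shared axis was not tested. The mean level of the fast-fibre list followed Myh4 (r = 0.91, rho = 0.73, permutation p of 1e-05 and 0.00019, adjusted over 64 relations 5.33e-05 and 0.000507), with r = 0.83 without SCR mouse 6 and ANTI-210 mouse 11, 0.99 within numbers 1 to 3, 0.94 within numbers 4 to 11 and 0.48 without the 5 mice far along the first component. Myh4 also followed the thick-filament list (r = 0.95, rho = 0.92) and the general muscle markers (r = 0.91, rho = 0.77; permutation p of 1e-05 for both r, 1e-05 and 8e-05 for rho). Without the 5 mice, its r was 0.80 with the thick-filament list and 0.48 with the muscle markers (rho of 0.83 and 0.52). The slow-fibre list followed Myh7 (r = 0.88, rho = 0.89, permutation p = 1e-05 each, adjusted 5.33e-05 and 7.11e-05), with r = 0.87 without ANTI-210 mice 6 and 4, 0.95 within numbers 1 to 3, 0.86 within numbers 4 to 11 and 0.85 without the 5 mice. It also followed Myh4 (r = 0.86, rho = 0.85, permutation p of 2e-05 and 1e-05), at 0.56 without the 5 mice. Within that list the slow light chains moved far: Myl2 ran from 9.47 to 14.75 in ANTI-210 mice and from 8.46 to 14.31 in SCR mice, and Myl3 from 9.72 to 14.70 in ANTI-210 mice and from 8.98 to 13.95 in SCR mice. Both correlated with Myh7 (0.851 and 0.856) and still higher with Myh4 (0.901 and 0.899). The slow troponins Tnnt1 (0.543), Tnnc1 (0.293) and Tnni1 (-0.446) followed Myh7 less closely or ran against it.

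The list of embryonic and regenerating muscle went with Myh8 and against Myh7 and Myh4, and less steadily against Myh1. Its r with Myh8 was 0.63 and rho 0.85 (permutation p of 0.00039 and 1e-05, adjusted 0.000924 and 7.11e-05), with r = 0.83 without ANTI-210 mice 4 and 6, 0.88 within numbers 1 to 3, 0.63 within numbers 4 to 11 and 0.58 without the 5 mice. With Myh7 it was -0.84 and rho -0.83 (permutation p = 1e-05 each, adjusted 5.33e-05 and 7.11e-05), with r = -0.85 without ANTI-210 mice 6 and 4, -0.82 within numbers 1 to 3, -0.87 within numbers 4 to 11 and -0.71 without the 5 mice. With Myh4 the list had r = -0.81 (permutation p = 1e-05), at -0.565 without the 5 mice. With Myh1 it had r = -0.50 (permutation p = 0.0185), but -0.33 within numbers 1 to 3 (permutation p = 0.49) and -0.004 without the 5 mice. Among the genes of the list, Dlk1, a membrane protein of fetal muscle, was closest to Myh8 (0.834) and was 9.69 to 12.91 in ANTI-210 and 10.43 to 12.91 in SCR mice. Chrng, the fetal subunit of the acetylcholine receptor, ran from 8.02 to 12.09 in ANTI-210 and from 7.74 to 12.21 in SCR mice and correlated at 0.65 with Myh8 and -0.814 with Myh7. Mymk, the fusion factor myomaker, ran from 6.20 to 9.95 in ANTI-210 and from 4.82 to 10.10 in SCR mice, at 0.565 with Myh8 and -0.772 with Myh7.

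Macrophage and fibro-adipogenic markers varied with Myh8, Myh7 and Myh4 between mice. With Myh1 their r was -0.54 and -0.38 (permutation p of 0.0108 and 0.0834), and -0.069 and 0.015 without the 5 mice. Smooth muscle and tendon markers had r of 0.44 and 0.58 with Myh8 (permutation p of 0.0331 and 0.00328), at 0.275 and 0.503 without the 5 mice. With Myh4 they had -0.90 and -0.77 (permutation p of 1e-05 and 2e-05), at -0.67 and -0.581 without the 5 mice. Over all 22 mice, endothelial, nerve, adipocyte and red blood cell markers were not shown to follow Myh8 (permutation p of r 0.919, 0.187, 0.193 and 0.213). Parts of the data differed. Nerve markers had r = 0.95 with Myh8 within numbers 1 to 3 and -0.60 within numbers 4 to 11 (permutation p of 0.00694 and 0.0133). Adipocyte markers had -0.76 within SCR mice (permutation p = 0.0139), and red blood cell markers -0.57 without the 5 mice. Of the macrophage markers 8 of 11 were measured, 0 of them past the threshold between groups, with Itgam near the floor, and their mean level ran from 8.76 to 10.64 in ANTI-210 and from 8.14 to 10.82 in SCR mice. That level followed Myh8 (r = 0.53, rho = 0.79, permutation p of 0.00741 and 2e-05, adjusted 0.0128 and 0.000107; r = 0.83 without ANTI-210 mice 4 and 6, 0.90 within numbers 1 to 3, 0.51 within numbers 4 to 11 and 0.43 without the 5 mice). It ran against Myh7 (r = -0.80, rho = -0.77, permutation p of 2e-05 and 5e-05, adjusted 7.53e-05 and 0.0002; r = -0.86 without ANTI-210 mice 6 and 4, -0.84 within numbers 1 to 3, -0.79 within numbers 4 to 11 and -0.63 without the 5 mice).

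The 5 of 5 measured markers of fibro-adipogenic progenitors, the connective-tissue cells of muscle, had a mean level of 11.72 to 13.03 in ANTI-210 and 11.36 to 12.97 in SCR mice, with 0 near the floor and 0 past the threshold. They followed Myh8 (r = 0.66, rho = 0.89, permutation p of 7e-05 and 1e-05, adjusted 0.000249 and 7.11e-05; r = 0.90 without ANTI-210 mice 4 and 6, 0.98 within numbers 1 to 3, 0.65 within numbers 4 to 11 and 0.60 without the 5 mice). Of the satellite cell markers 5 of 5 were measured, with Pax7, Myf5 and Calcr near the floor and a mean level of 6.38 to 7.03 in ANTI-210 and 6.47 to 7.14 in SCR mice. The other 2 markers, Cdh15 (also in the developmental list) and Vcam1, had r of 0.52 and 0.66 with Myh8, and the 3 near the floor had 0.22, 0.22 and -0.29. In the endothelial list 3 of 5 measured genes, Cdh5, Tek and Emcn, were higher in ANTI-210 at the unadjusted threshold, against 1.45% of all genes, each with a limma adjusted p of 1. Over all mice that list was not shown to follow Myh8 (r = 0.02, rho = -0.07, permutation p of 0.919 and 0.755, adjusted 0.919 and 0.767) or Myh7 (r = -0.03, rho = 0.08, permutation p of 0.878 and 0.724, adjusted 0.892 and 0.747). Within numbers 1 to 3 (6 mice) its r was 0.82 with Myh8 and -0.78 with Myh7 (permutation p of 0.0361 and 0.0528). The part of other cell types in the isoform values was not tested.

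**Figure D5:**
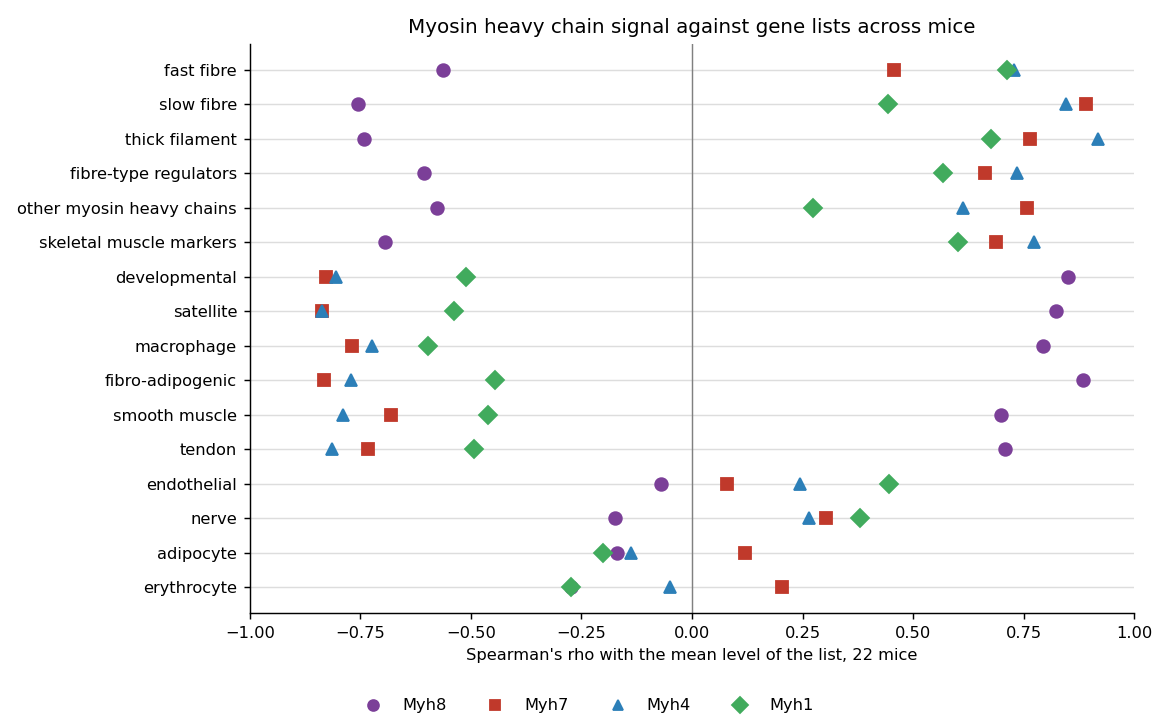
Spearman's rho over 22 mice (horizontal axis) between the signal of each isoform and the mean level of 16 gene lists (rows). Myh8 lies opposite to Myh7, Myh4 and Myh1 for the rows from fast fibre down to tendon, and the rows under them, endothelial to erythrocyte, lie nearer 0 for Myh8, at -0.27 to -0.07. The developmental list has a rho of 0.85 with Myh8 and of -0.83 with Myh7.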

How the data were processed

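Total RNA (200 ng) of 22 muscles was labelled and hybridized to Illumina mouse BeadChips, 1 array per mouse. According to the methods, the authors summarised beads in GenomeStudio, quantile normalized and filtered the values with beadarray; no version or filter threshold was stated in the sources used here. The deposited values were taken as log2 from their range, since the base is not stated. Array number limits the precision (median standard error 0.0672). Genes were named from the platform annotation (32093 probes with 1 symbol, 16 with several, 6454 with none), and the probe with the highest mean stood for its gene. The table held 0 further columns of values.

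Differences are ANTI-210 minus SCR, by limma 3.58.1 in R 4.3.3 over all 38563 probes, two-sided, at an unadjusted p of 0.05 as in the methods, with Benjamini-Hochberg adjustment beside it. Correlations used 100000 permutations. In numbers 1 to 3, correlations over 6 mice used exact permutations. Named genes are the members, the 5 genes most like each, and of each of 6 partner lists those past the threshold and the 3 with the smallest p. Partner genes past the threshold without the 5 mice far along the first component were added after seeing the data. Myl2, Myl3, Dlk1, Chrng, Mymk, the slow troponins and Mmp13's range were chosen after their values were seen. Members, lists and tests were chosen with earlier results of these data known. The fit was tested on simulated data. Replicate numbers did not pair the mice. Alternatives were other normalizations, other variance models, array weights, a filter on dim probes, other probes, a replicate block, the methods' t-test, the 2 sets of numbers and leaving out each mouse. The test of the difference between the 2 sets of numbers the use of Myh8 probe 3 and Myh1 probe 2 in correlations, and leaving out 5 mice were chosen after seeing the data. Myh2 and Myh3, planned as members of the comparison, had no probe, which left 6 of the planned pairs.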

Additional observations from a re-analysis of the deposited data

How the results depend on the processing

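Of 137 alternative values of the 4 isoform differences, the replicate block aside, 123 kept the sign and stayed short of the unadjusted threshold, 13 changed sign and 2 passed it. Both that passed were within replicate numbers 1 to 3 (Myh7 -1.95 and Myh8 0.34, whose sign also changed). Within numbers 4 to 11 Myh7 was 0.50 and Myh4 0.047. Leaving out each mouse gave -0.45 to 0.037 for Myh7, -0.26 to -0.003 for Myh8, -0.096 to 0.042 for Myh4, -0.066 to 0.028 for Myh1 and -0.28 to 0.18 for the perinatal-minus-adult difference. The sign changed for Myh7 without ANTI-210 mouse 1, 3 or 11 or SCR mouse 11, for Myh4 without ANTI-210 mouse 3 or 11, and for Myh1 without ANTI-210 mouse 10 or 11 or SCR mouse 1 or 5. The count of probes past the threshold (1316) was 3628 with array weights, 4892 without the 5 mice far along the first component (9 against 8), 492 among the brighter probes, where fewer were tested, 11283 within numbers 1 to 3, and 1110 to 1792 without each mouse. The count of partner genes (2 of 58) was 7 with array weights, where 3628 of 38563 probes passed, and 14 without the 5 mice, where 12.7% of probes passed. It was 36 within numbers 1 to 3, where 29.3% of probes passed, and 0 within numbers 4 to 11, where 2.54% passed. With a trended robust prior it was 1, with the mean of all probes 1, and without each mouse 0 to 4. The correlation of Myh8 with Myh4 missed the threshold within ANTI-210 (-0.51), SCR (-0.50), numbers 1 to 3 (-0.73) and 4 to 11 (-0.47), and within numbers 1 to 3 so did those of Myh7 with Myh4 (0.62) and of Myh4 with Myh1 (0.61), where 6 mice enter; Myh7 with Myh1 was -0.008 within ANTI-210 and passed with the dimmer Myh1 probe (0.457). Without the 5 mice, Myh8 with Myh4 (-0.421), Myh7 with Myh4 (0.464) and Myh4 with Myh1 (0.45) missed the threshold, and Myh8 with Myh1 (0.181) and Myh7 with Myh1 (-0.287) changed sign. The cause of these changes was not tested. The replicate number as a block cannot move the differences, since each number holds 1 mouse of each group; the isoforms' p lay between 0.498 and 0.837 with it, and 1305 probes passed; same-numbered mice correlated between -0.66 and 0.64, over 0.1 in 4 of 11 pairs, and 1 ANTI-210 mouse correlated best with its own number. Array weights moved Myh7 to -0.75 (limma p = 0.24). Signals near the floor (Myh7) and the top (Myh8) of the scale limit what these arrays resolve.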
